A study of Mus musculus with 12 samples.

Results

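A set of 9 upper-layer neuron effector genes, which mark upper-layer cortical neurons and do not encode DNA-binding transcription factors, was followed across 12 RNA libraries of mouse cortex. The genes are Rasgrf2, Dok5, Nectin3, Mdga1, Limch1, Kitl, Ptn, Lpl and Lmo4. They were chosen by name, with earlier results of these data known, from the 51912 genes listed in each count file. All 9 of the 9 were found and passed the filter on low counts with 11076 genes in all. The cortex came from mice at postnatal day 0. The 4 control-labelled libraries carry no further genotype in the labels, so whether they hold floxed alleles or a Cre driver is not given in the sources used here. The 4 libraries labelled H3.3 Neurod6 dKO, called dKO-N here, are by the series' design text conditional knockouts of H3f3a and H3f3b, the 2 genes of the histone variant H3.3, in cells in which Neurod6-Cre acts, which are new postmitotic excitatory neurons of the cortex. The 4 libraries labelled H3.3 Emx1 dKO, called dKO-E, are conditional knockouts of the same 2 genes where Emx1-Cre acts, which is earlier, in the dividing progenitors of those neurons and in the glia they also give rise to. Cells outside each Cre lineage, such as interneurons, vessels and microglia, keep both genes and are part of the same tissue. The comparison asks how these genes stood when H3.3 was targeted after or before the last division of the neuron.

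Upper-layer neurons of layers 2 to 4 are the last excitatory neurons born in the cortex, and most of them send axons within the cortex or across the corpus callosum. Their identity is set by transcription factors such as Cux1, Cux2 and the POU factors, and is carried out by the products of other genes: signalling adaptors, adhesion molecules, secreted factors, enzymes. Histone H3.3 is the H3 variant that is deposited outside DNA replication, and in neurons, which no longer divide, it becomes the main supply of new H3. In whole tissue, fewer cells of a type and less RNA per cell cannot be told apart, and this holds for every value below.

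The libraries held between 722080 and 3502017 counts in genes, with the dKO-N libraries covering that whole range (722080, 1046240, 746318 and 3502017) and the control-labelled libraries between 1974975 and 3083599. A total of 3 counts corresponded to between 0.857 and 4.15 CPM (counts scaled to a common library size) in a library. The targeted genes were read first. The 4 control-labelled libraries, in order, had 17.7, 117, 16.4 and 121 CPM of H3f3a, which was between 22.1 and 37.8 CPM in dKO-N and between 22.9 and 30.0 CPM in dKO-E. The libraries labelled control 1 and control 3 therefore lay below every knockout library for H3f3a, against their label, and the results for the 9 genes were also computed without them. H3f3a passed the test in neither knockout (edgeR adjusted p = 0.494 in dKO-N and 0.228 in dKO-E). H3f3b stood at 121, 76.7, 143 and 84.2 CPM in the control-labelled libraries, at 146, 118, 113 and 111 CPM in dKO-N and at 170, 176, 180 and 167 CPM in dKO-E. Here too the libraries labelled control 1 and 3 lay apart from control 2 and 4, inside the range of dKO-N. H3f3b went against the knockout label: it was called higher with dKO-E (0.69 on the log2 scale, edgeR adjusted p = 0.000707) and not lower in dKO-N (0.16, adjusted p = 0.583). Which part of either gene is removed is not given in the sources used here, and both genes have near-identical processed copies in the genome that can take reads, so these counts check the deletion only in part. Of the libraries, dKO-E 3 and 4 held 1035 and 274 counts of Y-linked genes and the other 10 held 0 to 3. Markers of excitatory cortical neurons, 8 of 8 detected, summed to 2515 to 2903 CPM in the control-labelled libraries, which bears out the labelled tissue, to 1623 to 2324 in dKO-N and to 1170 to 1533 in dKO-E. This sum, which includes Neurod6, moved with the groups as most of the 9 genes did. Interneuron markers summed to 361 to 419, 382 to 455 and 357 to 504 CPM in the 3 groups, vessel markers to 105 to 116, 76.2 to 98.8 and 77.0 to 108 CPM. Oligodendrocyte precursor markers summed to 61.8 to 77.0, 38.8 to 66.2 and 39.7 to 50.3 CPM, and striatum markers to 65.0 to 86.3, 40.0 to 60.7 and 41.3 to 56.2 CPM, with the striatal gene Rgs9 called lower in both knockouts. Meninges markers reached 96.0 CPM in dKO-E 1 against 8.95 to 35.7 CPM in the other libraries. The part of these cell types in the values of the 9 genes was not tested. No label ties the 4 libraries of a group to different mice, and the p-values below therefore cover library-to-library spread only, some of which may be technical.

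The stretches of DNA just upstream of a RefSeq start site of 4 of the genes are shown because these genes were lower in both knockouts and have a window in the RefSeq promoter table (build GRCm38.p6), which held 7 of the 9 genes. Limch1 also met this and is not printed, and for Lmo4 the most upstream of 3 listed windows is given. Each is written 5′ to 3′ on the strand of the gene and ends at the RefSeq start site, or, for Ptn, where the annotated exon begins. The Nectin3 window lies inside the gene as GENCODE places it, downstream of the gene's outermost 5′ end. Capitals mark matches to 1 of 5 motifs searched on both strands: CAGATG (an E-box bound by neurogenic bHLH factors), ATGCAAAT (the POU octamer), TATAAA (the TATA box), CCAAT, and GGGCGG (the GC box).
Rasgrf2, chr13:92131829-92132078, minus strand: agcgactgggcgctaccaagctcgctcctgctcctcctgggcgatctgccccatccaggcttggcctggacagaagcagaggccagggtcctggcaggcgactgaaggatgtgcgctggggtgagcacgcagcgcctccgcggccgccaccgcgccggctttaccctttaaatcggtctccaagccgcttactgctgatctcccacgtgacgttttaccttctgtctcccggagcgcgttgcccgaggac
Nectin3, chr16:46496968-46497217, minus strand: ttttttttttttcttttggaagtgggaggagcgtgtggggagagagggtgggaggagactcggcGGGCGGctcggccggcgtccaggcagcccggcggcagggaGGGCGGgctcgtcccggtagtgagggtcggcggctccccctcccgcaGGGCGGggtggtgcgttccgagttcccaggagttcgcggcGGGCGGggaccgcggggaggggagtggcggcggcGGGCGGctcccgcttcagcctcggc
Ptn, chr6:36810221-36810429, minus strand: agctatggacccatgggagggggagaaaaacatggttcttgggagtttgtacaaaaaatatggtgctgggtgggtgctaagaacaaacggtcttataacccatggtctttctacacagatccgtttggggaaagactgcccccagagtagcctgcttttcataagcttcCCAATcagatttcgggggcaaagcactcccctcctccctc
Lmo4, chr3:144205256-144205505, minus strand: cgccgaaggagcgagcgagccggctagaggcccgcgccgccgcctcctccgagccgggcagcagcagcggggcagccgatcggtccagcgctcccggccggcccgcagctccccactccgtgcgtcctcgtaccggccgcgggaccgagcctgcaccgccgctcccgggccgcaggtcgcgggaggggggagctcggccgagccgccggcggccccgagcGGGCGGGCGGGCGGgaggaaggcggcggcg
The windows of 250 bases were rich in G and C for Lmo4 (82.4%, with 44 CpG dinucleotides), Nectin3 (73.2%, 30 CpG) and Rasgrf2 (65.2%, 22 CpG), against a median of 52.4% and 6 CpG over the 32526 windows of the table. Ptn was close to that median, with 52% and 5 CpG. Nectin3 held 5 GC boxes and Lmo4 3 that overlap each other, Ptn held 1 CCAAT, and none of the 5 motifs was found in the Rasgrf2 window. Over all windows, 33.0% held GGGCGG, 33.8% CCAAT, 14.4% CAGATG, 12.3% TATAAA and 1.62% ATGCAAAT. The E-box and the octamer had no match in the window of any of the 7 genes. These are matches of letters and say nothing of binding.

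In dKO-N, 7 of the 9 genes were lower than in the control-labelled libraries and none was higher (edgeR's quasi-likelihood test, Benjamini-Hochberg adjusted p under 0.05 over all genes tested), where 6.29% of all genes were called lower and 5.04% higher. The genes called lower were Rasgrf2, Dok5, Nectin3, Limch1, Ptn, Lpl and Lmo4. In dKO-E, 6 of the 9 were lower and none higher, against 10.1% of all genes called lower and 10.1% higher, and here Lpl was not among them. The median log2 fold change of the 9 genes was -0.83 in dKO-N and -0.93 in dKO-E, beside a median of 0.01 over all genes in each. The median level of the 9 genes in the control-labelled libraries was 154 CPM, against 28.7 CPM over all genes tested. The shares over all genes were not matched for this level, on which the power to call a gene depends. The 9 genes were chosen with earlier results of these data known, so their counts beside these shares describe the list and are no test. Both comparisons use the same 4 control-labelled libraries, so their values stand side by side and do not count as independent of each other. For 7 of the 9 genes all 4 dKO-N libraries lay below all 4 control-labelled libraries, which 7.19% of all genes did. In dKO-E 7 of the 9 genes did so, against 13.0% of all genes, and these were the 6 called genes and Kitl.

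**Figure D1:**
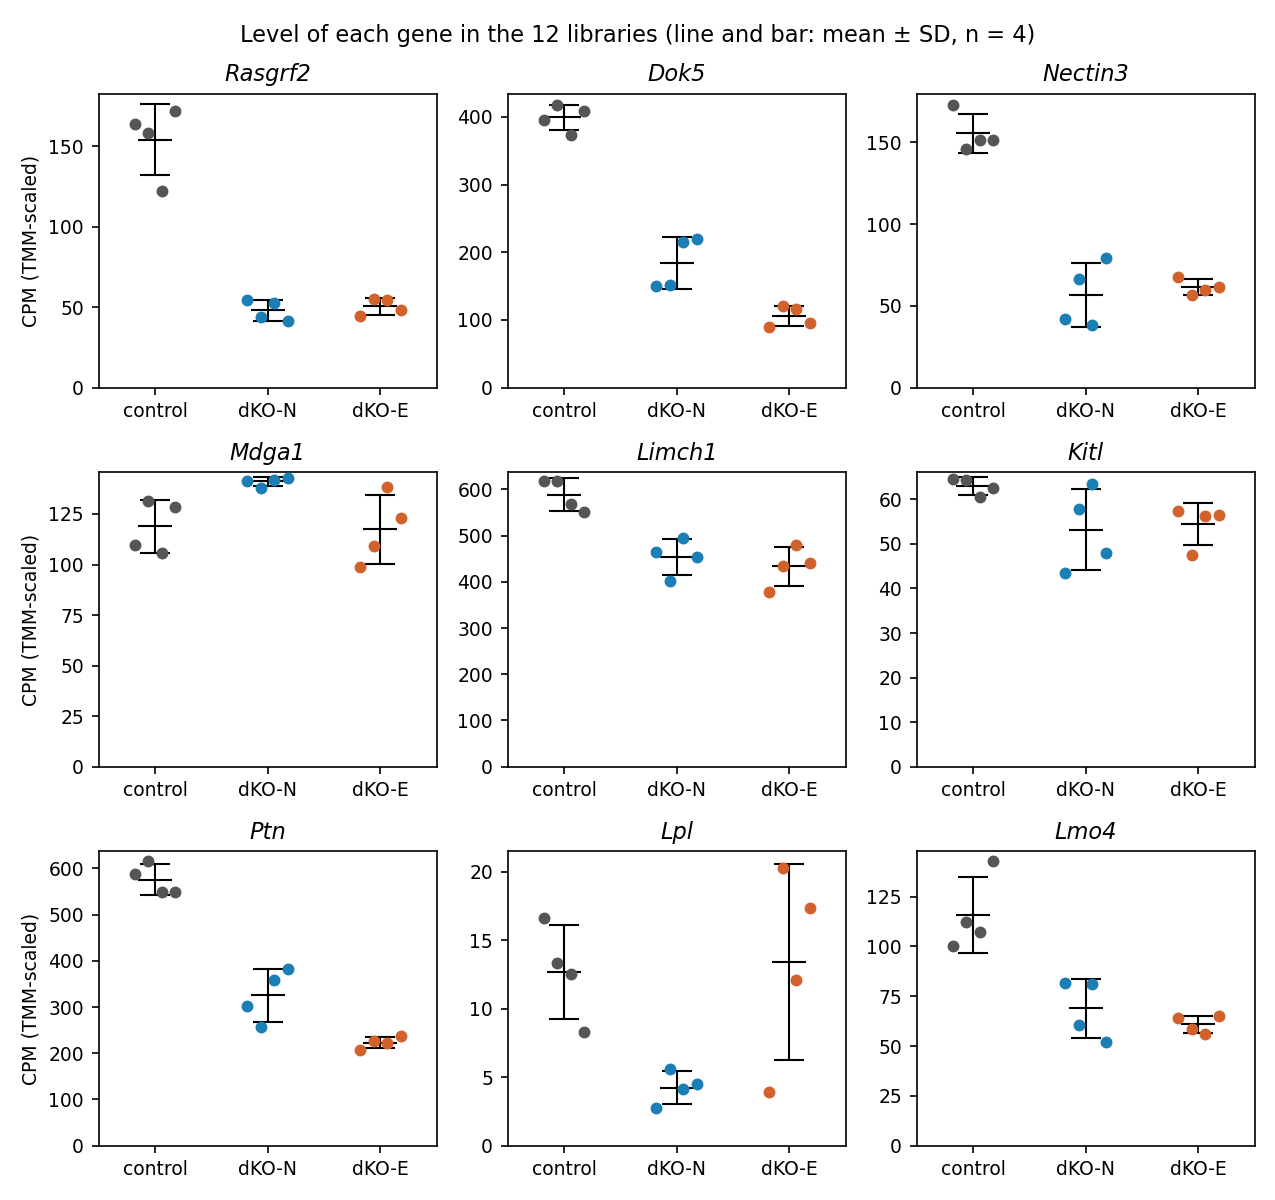
Level of each of the 9 genes in every library, in TMM-scaled CPM on a linear axis from 0, by group; points are libraries and the line and bars give the mean ± SD (n = 4). The knockout points lie below all points of the control-labelled libraries for Rasgrf2, Dok5, Nectin3, Limch1, Ptn and Lmo4, while Lpl is low in dKO-N and spread from 3.92 to 20.3 CPM in dKO-E.

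Rasgrf2 and Dok5 act inside the cell, just behind receptors. Rasgrf2 (chr13:91880400-92131656, minus strand, mm10) encodes a calcium-regulated exchange factor that loads Ras and Rac with GTP, and its RNA is a common marker of layer 2/3. It stood at 164, 158, 122 and 172 CPM in the control-labelled libraries, at 54.4, 43.8, 52.4 and 41.5 CPM in dKO-N and at 44.4, 55.1, 54.3 and 48.1 CPM in dKO-E. All 8 knockout libraries lay below the lowest control-labelled library, and the 2 knockouts overlapped. The mean fell from 154 ± 22 CPM to 48.0 ± 6.34 in dKO-N, 31.2% of the control mean, and to 50.5 ± 5.12 in dKO-E, 32.7% of it. The log2 fold changes were -1.74 (SE 0.132, adjusted p = 1.52e-12) and -1.59 (SE 0.118, adjusted p = 3.62e-13). Between the knockouts the difference was 0.14 with a 95% interval of -0.15 to 0.44 (adjusted p = 0.607).

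Dok5 (chr2:170731807-170879769, plus strand) encodes an adaptor that docks on receptor tyrosine kinases such as Ret and the neurotrophin receptors TrkB and TrkC. Its levels were 396, 418, 374 and 409 CPM in the control-labelled libraries, 150, 152, 215 and 219 CPM in dKO-N and 90.1, 120, 116 and 96.2 CPM in dKO-E. The 3 groups did not overlap and fell in that order. The mean was 399 ± 19.0 CPM, then 184 ± 38.3 (46.1% of it) and 106 ± 14.6 (26.5%), with log2 fold changes of -1.09 (SE 0.111, adjusted p = 3.34e-09) in dKO-N and -1.90 (SE 0.112, adjusted p = 3.70e-15) in dKO-E. Dok5 also differed between the knockouts, dKO-E being the lower, by a log2 fold change of -0.81 with a 95% interval of -1.05 to -0.57 (adjusted p = 5.63e-05). Between the knockouts 2 of the 9 genes were lower in dKO-E and 1 was higher, against 3.73% and 3.11% of all genes, and 2 had all 4 dKO-E libraries below all 4 dKO-N libraries, as 4.8% of all genes did. In each case the lower genes were Dok5 and Ptn.

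Nectin3 and Mdga1 act at the cell surface. Nectin3 (chr16:46387706-46498525, minus strand) encodes an immunoglobulin-type adhesion molecule that pairs with Nectin1 on the facing cell and is tied to actin by afadin. It was at 173, 146, 152 and 151 CPM in the control-labelled libraries, at 42.2, 66.2, 38.6 and 79.3 CPM in dKO-N and at 67.9, 56.7, 59.8 and 61.5 CPM in dKO-E. No knockout library reached the lowest control-labelled library, and the dKO-N libraries spread on both sides of the dKO-E ones. The means were 155 ± 12.0, 56.6 ± 19.5 (36.4% of control) and 61.5 ± 4.73 CPM (39.5%). The log2 fold change was -1.32 (SE 0.139, adjusted p = 9.56e-09) in dKO-N and -1.35 (SE 0.130, adjusted p = 7.89e-10) in dKO-E, and the difference between the knockouts was -0.02 (95% interval -0.33 to 0.28, adjusted p = 0.944). The highest dKO-N library for Nectin3, dKO-N 4, was also the deepest and had the highest sum of excitatory neuron markers of its group (2324 CPM against 1623 to 1806 in the others). Whether that bears on its Nectin3 level was not tested. Without it the log2 fold change in dKO-N was -1.62.

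Mdga1 (chr17:29827949-29970087, minus strand) encodes a membrane-anchored protein that binds neuroligin-2 and keeps it from its presynaptic partners. Unlike the genes above it was not called in either knockout. Its levels were 110, 132, 106 and 129 CPM in the control-labelled libraries, 141, 138, 142 and 143 CPM in dKO-N and 98.6, 109, 138 and 123 CPM in dKO-E. All 4 dKO-N libraries lay above all control-labelled libraries, as was so for 5.84% of all genes, while the dKO-E libraries overlapped both other groups. The log2 fold change in dKO-N was 0.25 (SE 0.110, unadjusted p = 0.0268 by edgeR, adjusted p = 0.150). In dKO-E it was -0.01 with a 95% interval of -0.22 to 0.21 (adjusted p = 0.978), and its sign turned under 6 of 22 other settings, up to 0.12 when libraries were scaled by their totals. An antisense gene within Mdga1 held 38 counts over the 12 libraries against 2878 for Mdga1.

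Limch1 (chr5:66745827-67057158, plus strand) encodes a protein that binds non-muscle myosin II and promotes its contractile activity. It was at 619, 619, 568 and 550 CPM in the control-labelled libraries, at 464, 402, 495 and 454 CPM in dKO-N and at 378, 435, 479 and 441 CPM in dKO-E. Every knockout library was below every control-labelled library, yet the drop was small beside those of Rasgrf2 or Dok5: dKO-N kept 77.1% and dKO-E 73.6% of the control mean of 589 ± 35.3 CPM. The log2 fold changes were -0.38 (SE 0.0928, adjusted p = 0.00434) and -0.44 (SE 0.0908, adjusted p = 0.000395), and -0.06 between the knockouts (95% interval -0.25 to 0.13, adjusted p = 0.756). Without the libraries labelled control 1 and 3 the dKO-N value was -0.37, with an adjusted p of 0.0482.

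Kitl and Ptn are ligands of receptors on other cells. Kitl (chr10:100015630-100100416, plus strand) encodes stem cell factor, the ligand of the receptor tyrosine kinase Kit. It stood at 64.6, 64.4, 60.5 and 62.5 CPM in the control-labelled libraries, at 43.5, 57.8, 63.4 and 48.1 CPM in dKO-N and at 57.5, 47.4, 56.3 and 56.5 CPM in dKO-E. The dKO-E libraries lay just below the lowest control-labelled library and dKO-N overlapped it. Neither difference passed the test: the log2 fold change was -0.27 in dKO-N (SE 0.133, adjusted p = 0.213) and -0.22 in dKO-E (95% interval -0.46 to 0.03, adjusted p = 0.218). Between the knockouts it was 0.05 (95% interval -0.22 to 0.33, adjusted p = 0.862). These intervals leave room for a drop of the size seen in Limch1.

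Ptn (chr6:36714929-36810220, minus strand) encodes pleiotrophin, a heparin-binding growth factor that signals through the phosphatase receptor Ptprz1 and is also made by radial glia and vessels. Its levels were 589, 616, 548 and 549 CPM in the control-labelled libraries, 302, 256, 358 and 383 CPM in dKO-N and 207, 226, 222 and 238 CPM in dKO-E. As with Dok5, the 3 groups did not overlap and followed the same order. The mean of 576 ± 33.0 CPM fell to 325 ± 56.9 in dKO-N (56.5%) and 223 ± 12.9 in dKO-E (38.8%), by log2 fold changes of -0.81 (SE 0.10, adjusted p = 1.16e-07) and -1.36 (SE 0.0996, adjusted p = 2.64e-13). The difference between the knockouts was -0.55, with a 95% interval of -0.76 to -0.34 (adjusted p = 0.000856). The summed markers of radial glia, which also make Ptn, were at 265 to 321 CPM in the control-labelled libraries and higher, at 361 to 436 and 329 to 406 CPM, in dKO-N and dKO-E. Of these 8 markers 5 were tested, with 3 called higher in dKO-N and 1 in dKO-E, and Sox2 had no counts in any library. The reason for this was not tested, and Sox2 is not read as absent from the tissue. The part of radial glia in the Ptn values was not tested.

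Lpl (chr8:68880491-68907448, plus strand) encodes lipoprotein lipase, which frees fatty acids from triglyceride-rich lipoproteins. It was the lowest of the 9 genes in CPM, at 16.6, 13.3, 12.5 and 8.27 CPM in the control-labelled libraries, 2.72, 5.60, 4.14 and 4.51 CPM in dKO-N and 3.92, 20.3, 12.1 and 17.3 CPM in dKO-E. All dKO-N libraries lay below all control-labelled libraries, on only 2, 6, 3 and 15 counts. The dKO-E libraries covered the control range and beyond, with 1 library, on 6 counts, at the dKO-N level. The log2 fold change was -1.53 in dKO-N (95% interval -2.33 to -0.74, adjusted p = 0.00709) and 0.10 in dKO-E (95% interval -0.48 to 0.69, adjusted p = 0.842), and dKO-E was higher than dKO-N by 1.64 (95% interval 0.84 to 2.43, adjusted p = 0.00905). The dKO-N call was lost without the libraries labelled control 1 and 3 (-1.28, adjusted p = 0.128). The difference between the knockouts missed the threshold without dKO-N 4 (1.67, adjusted p = 0.0666) and without dKO-E 3 and 4 (1.56, adjusted p = 0.0797). Microglia, which also make Lpl, had summed markers of 9.54 to 14.7 CPM in the control-labelled libraries, 13.8 to 21.9 in dKO-N and 17.6 to 24.8 in dKO-E, and the library with the highest sum, dKO-E 1, was the lowest of its group for Lpl. Of these 8 markers 2 passed the filter on low counts, and 3 counts were up to 4.15 CPM in a library. The part of microglia in the Lpl values was not tested.

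Lmo4 (chr3:144188530-144205220, minus strand) encodes a LIM-only cofactor that binds no DNA itself and joins LIM-binding proteins such as Ldb1 to transcription factors. It was at 100, 112, 107 and 143 CPM in the control-labelled libraries, at 81.6, 60.6, 81.3 and 52.3 CPM in dKO-N and at 64.0, 58.3, 56.3 and 64.9 CPM in dKO-E. Knockout and control-labelled libraries did not overlap, and the dKO-E values lay inside the range of dKO-N. The mean of 116 ± 18.9 CPM was 69.0 ± 14.9 in dKO-N (59.6%) and 60.9 ± 4.22 in dKO-E (52.6%). The log2 fold changes were -0.83 (SE 0.137, adjusted p = 3.25e-05) and -0.93 (SE 0.127, adjusted p = 6.64e-07), and -0.10 between the knockouts (95% interval -0.40 to 0.20, adjusted p = 0.745).

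**Figure D2:**
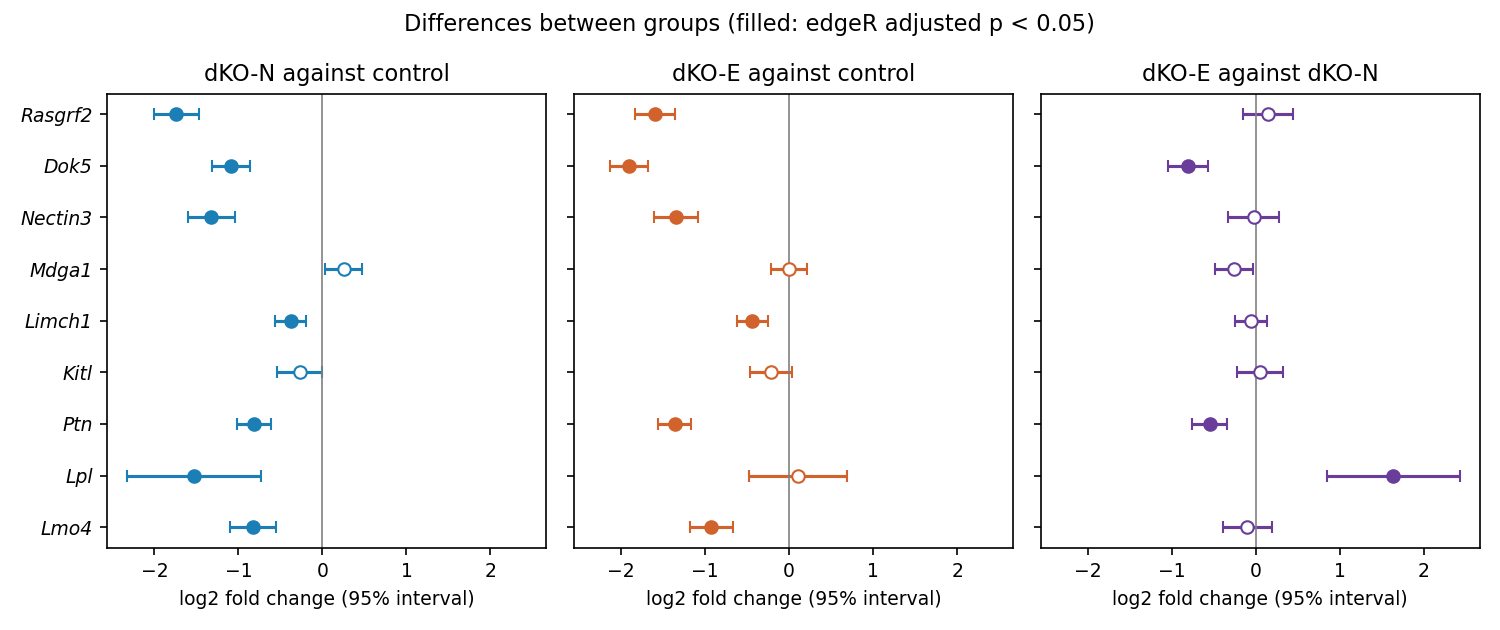
Log2 fold change of each of the 9 genes with its 95% interval, for dKO-N against control, dKO-E against control and dKO-E against dKO-N; filled points passed the test (edgeR adjusted p under 0.05). Dok5 and Ptn lie left of 0 in all 3 panels, Lpl is left of 0 in dKO-N only among the comparisons with control, and the intervals of Rasgrf2, Nectin3, Limch1, Kitl and Lmo4 include 0 between the knockouts.

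The 9 genes showed different patterns of level. Rasgrf2, Nectin3, Limch1 and Lmo4 were lower in each knockout, with no difference passing the test between the knockouts. Dok5 and Ptn were lower in each and lowest in dKO-E. Lpl was lower in dKO-N, and Mdga1 and Kitl passed no test. The spread between libraries also differed: in dKO-N the coefficient of variation was 34.5% for Nectin3, 20.8% for Dok5 and 1.53% for Mdga1, and in the control-labelled libraries it ran from 3.09% for Kitl to 27.0% for Lpl. Leaving out the libraries labelled control 1 and 3, 6 of the 9 genes remained lower in dKO-N and 6 in dKO-E. Among all genes, 756 were changed in dKO-N and 1215 in dKO-E in that setting. The values were then -1.84 and -1.70 for Rasgrf2, -1.15 and -1.96 for Dok5, -1.27 and -1.28 for Nectin3, -0.84 and -1.38 for Ptn, and -0.98 and -1.08 for Lmo4, in dKO-N and dKO-E in turn. Without dKO-E 3 and 4, the libraries with Y-linked counts, 6 of the 9 genes were lower in dKO-E. Among all genes, 1225 were changed in dKO-E in that setting.

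Per length of exon, the genes covered a wide range of levels. In the control-labelled libraries Dok5 was highest at 226 ± 10.8 CPM per exonic kb, followed by Ptn at 168 ± 9.62, Limch1 at 57.4 ± 3.44 and Lmo4 at 32.8 ± 5.36. Then came Rasgrf2 at 16.7 ± 2.39, Mdga1 at 12.5 ± 1.37, Nectin3 at 12.2 ± 0.942 and Kitl at 10.7 ± 0.329, with Lpl last at 1.21 ± 0.327. Among neighbours in this order, the ranges of Rasgrf2 and Mdga1, and of Mdga1 and Nectin3, overlapped, and those of the other neighbours did not. In dKO-N, Dok5 (104 ± 21.7) and Ptn (94.7 ± 16.6) overlapped, and in dKO-E Ptn (65.0 ± 3.76) and Dok5 (59.7 ± 8.28) overlapped in the opposite order. Rasgrf2 and Nectin3, above or beside Mdga1 and Kitl in the control-labelled libraries, came after both in each knockout, at 5.20 ± 0.687 and 4.44 ± 1.53 CPM per exonic kb in dKO-N and 5.47 ± 0.554 and 4.82 ± 0.371 in dKO-E. The 2 did not differ beyond their spread in either. Whether reads in introns were counted is not given in the sources used here, and the genes are long (median 111 kb, against 32.2 kb over all genes tested), so levels per exonic length are approximate.

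**Figure D3:**
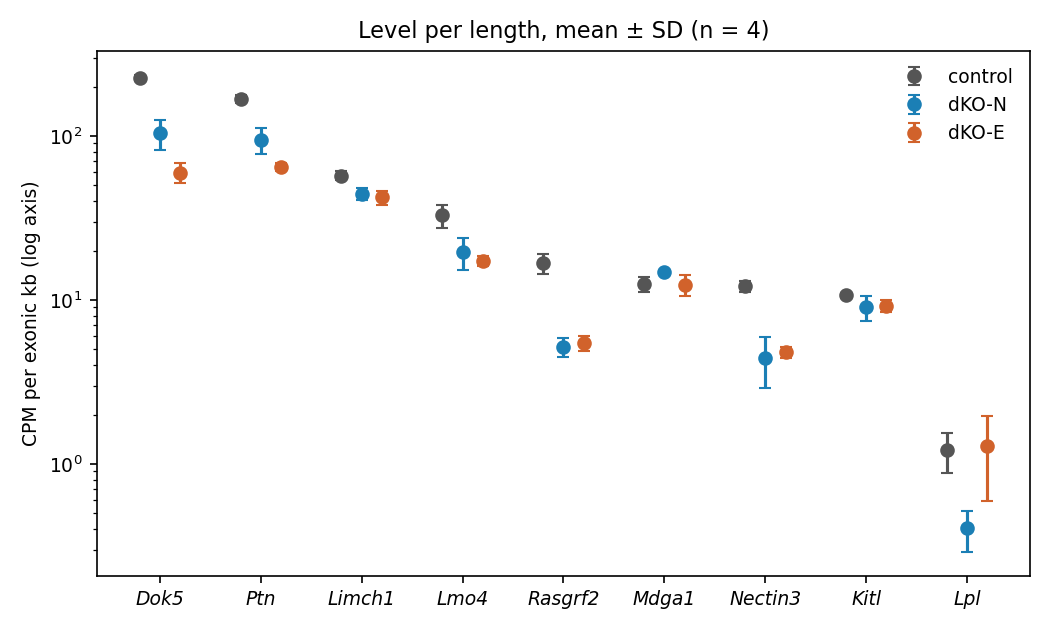
Level per exonic length of each gene in the 3 groups, in CPM per exonic kb on a log axis, as mean ± SD over 4 libraries. Genes are in the order of the control-labelled libraries, from Dok5 at 226 to Lpl at 1.21, and the knockout means of Rasgrf2 and Nectin3 lie below those of Mdga1 and Kitl.

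The molecules that these genes work with were read from the same fit. Of 80 partner genes listed, 66 were tested, of which 11 were lower and 4 higher in dKO-N (median log2 fold change -0.05) and 13 lower and 6 higher in dKO-E (median -0.09). Between the knockouts 6 were lower and 5 higher in dKO-E. Over all genes, 6.29% were lower and 5.04% higher in dKO-N, and 10.1% lower and 10.1% higher in dKO-E. Between the knockouts 3.73% of all genes were lower and 3.11% higher. Some calls in each list below are therefore what any list of genes would hold. Among the 11 relatives and targets of Rasgrf2, all tested, Rasgrp1, another Ras exchange factor, was lower in dKO-N (edgeR adjusted p = 0.00503), at 1.26 ± 0.868 against 7.28 ± 3.04 CPM. That dKO-N mean is under the level of 3 counts in 3 of the 4 dKO-N libraries, so the size of the drop is uncertain. Rasgrf1, the nearest relative of Rasgrf2, rose in dKO-E from 16.4 ± 9.71 to 51.8 ± 4.71 CPM (a log2 fold change of 1.68, adjusted p = 0.00498), the opposite direction to Rasgrf2. In dKO-N it was at 31.0 ± 12.4 CPM, not past the test (adjusted p = 0.303). Rasgrf1 was the 1 higher gene of the list in dKO-E.

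Of 12 relatives and receptors of Dok5, 8 were tested, and 2 were lower in each knockout. Dok4, its close relative, fell from 31.0 ± 6.84 CPM to 18.4 ± 5.19 in dKO-N (-0.85 on the log2 scale, adjusted p = 0.00894) and to 14.9 ± 2.92 in dKO-E (-1.03, adjusted p = 0.000287). Ntrk2, which encodes the BDNF receptor TrkB, fell from 903 ± 50.7 to 593 ± 112 CPM (-0.60, adjusted p = 3.88e-05) and 552 ± 24.7 CPM (-0.71, adjusted p = 9.00e-07). Of the 8 partners of Nectin3, 7 were tested, and none was lower. Nectin1, which encodes its binding partner on the facing cell, rose in dKO-E from 55.6 ± 6.21 to 83.7 ± 3.95 CPM (0.60, adjusted p = 0.000163) and was at 62.9 ± 8.48 CPM in dKO-N (adjusted p = 0.567). Ctnnb1, encoding beta-catenin, was higher in both, by 0.33 (adjusted p = 0.0223) and 0.29 (adjusted p = 0.0290).

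All 7 partners of Mdga1 were tested, and 3 were lower in dKO-N and 2 in dKO-E, although Mdga1 itself passed no test. Mdga2, the close relative of Mdga1, fell in each knockout (log2 fold change -0.34, adjusted p = 0.00887, and -0.73, adjusted p = 7.55e-08), with dKO-E the lower of the 2 (-0.39, adjusted p = 0.00714). Of 7 partners of Limch1, 5 were tested. Lmo7, the relative of Limch1, fell from 139 ± 12.3 CPM to 82.3 ± 5.04 (-0.76, adjusted p = 4.46e-06) and 56.8 ± 7.60 (-1.27, adjusted p = 2.21e-11). Myl12a, a myosin light chain, rose in dKO-E from 2.62 ± 1.14 to 5.65 ± 1.43 CPM (1.20, adjusted p = 0.0403). That control mean is close to the level of 3 counts, 0.973 to 1.52 CPM in the control-labelled libraries, so the size of the rise is uncertain.

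Kit, the receptor of Kitl, fell where its ligand passed no test: from 50.7 ± 8.54 CPM to 32.8 ± 9.64 with dKO-N (-0.57, adjusted p = 0.0209) and 31.2 ± 4.39 with dKO-E (-0.72, adjusted p = 0.000883). Ptpn11, a phosphatase downstream of Kit, was lower in dKO-E (-0.32, adjusted p = 0.0411). All 7 partners of Ptn were tested. Ptprz1, its main receptor, was higher in dKO-N, at 1149 ± 222 against 860 ± 36.7 CPM (0.42, adjusted p = 0.00317), and at 906 ± 32.8 CPM in dKO-E (0.07, adjusted p = 0.653). Alk, a receptor kinase that Ptn has been tied to, rose in dKO-E from 66.4 ± 17.4 to 110 ± 7.33 CPM (0.73, adjusted p = 0.00135). Ptn itself was lower in both knockouts.

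Of 13 partners of Lpl, 7 were tested. Of these, 2 were lower in dKO-E, where Lpl passed no test, among them the lipoprotein receptor Vldlr (-0.39, adjusted p = 0.0183), and Lrp8 was the 1 higher gene in dKO-N. Of 11 partners of Lmo4, 10 were tested. Lmo3, its relative, fell from 147 ± 11.3 to 76.0 ± 19.0 CPM in dKO-N (-0.99, adjusted p = 1.60e-07) and to 120 ± 2.96 CPM in dKO-E (-0.30, adjusted p = 0.0466), and was higher in dKO-E than in dKO-N (0.69, adjusted p = 0.000682). Lmo2 rose in dKO-E from 5.00 ± 0.623 to 9.05 ± 1.08 CPM (0.86, adjusted p = 0.0462). The 3 lower genes of this list in dKO-E were Lmo3, the LIM-binding cofactor Ldb2, and Ssbp2.

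Other genes of the cortical layers were set beside the 9. Of 15 further upper-layer genes, most of them transcription factors, 14 were tested, and 5 were lower and 2 higher in dKO-N (median log2 fold change -0.25) and 9 lower and 3 higher in dKO-E (median -0.70). Inhba, a secreted ligand of upper layers, fell from 44.1 ± 9.22 to 18.8 ± 5.83 CPM (-1.29, adjusted p = 9.79e-05) and 9.07 ± 4.06 CPM (-2.20, adjusted p = 3.81e-09). Between the knockouts 6 of these 14 were lower in dKO-E and none higher, beside 2 lower and 1 higher of the 9 effector genes. The shares over all genes were 3.73% lower and 3.11% higher.

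Layer 5 genes, 10 of 12 tested, showed 2 lower and 4 higher in dKO-N (median 0.30) and 2 and 2 in dKO-E (median 0.02). Crym rose in dKO-N from 7.52 ± 1.59 to 18.6 ± 3.99 CPM (1.27, adjusted p = 0.00228), and Etv1 fell in both (-0.54, adjusted p = 0.0123, and -1.03, adjusted p = 8.11e-07). All 12 layer 6 genes were tested, with 2 lower and 3 higher in dKO-N (median -0.03) and 7 lower and 3 higher in dKO-E (median -0.34). Ntsr1 fell in each knockout (-0.72, adjusted p = 0.000977, and -1.36, adjusted p = 8.91e-09), while Syt6 rose in each (1.35, adjusted p = 1.53e-09, and 0.40, adjusted p = 0.0286). For all 3 layer lists, the shares over all genes were 6.29% lower and 5.04% higher in dKO-N. In dKO-E they were 10.1% lower and 10.1% higher. These counts describe the lists, and no test was made of one list against another.

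**Figure D4:**
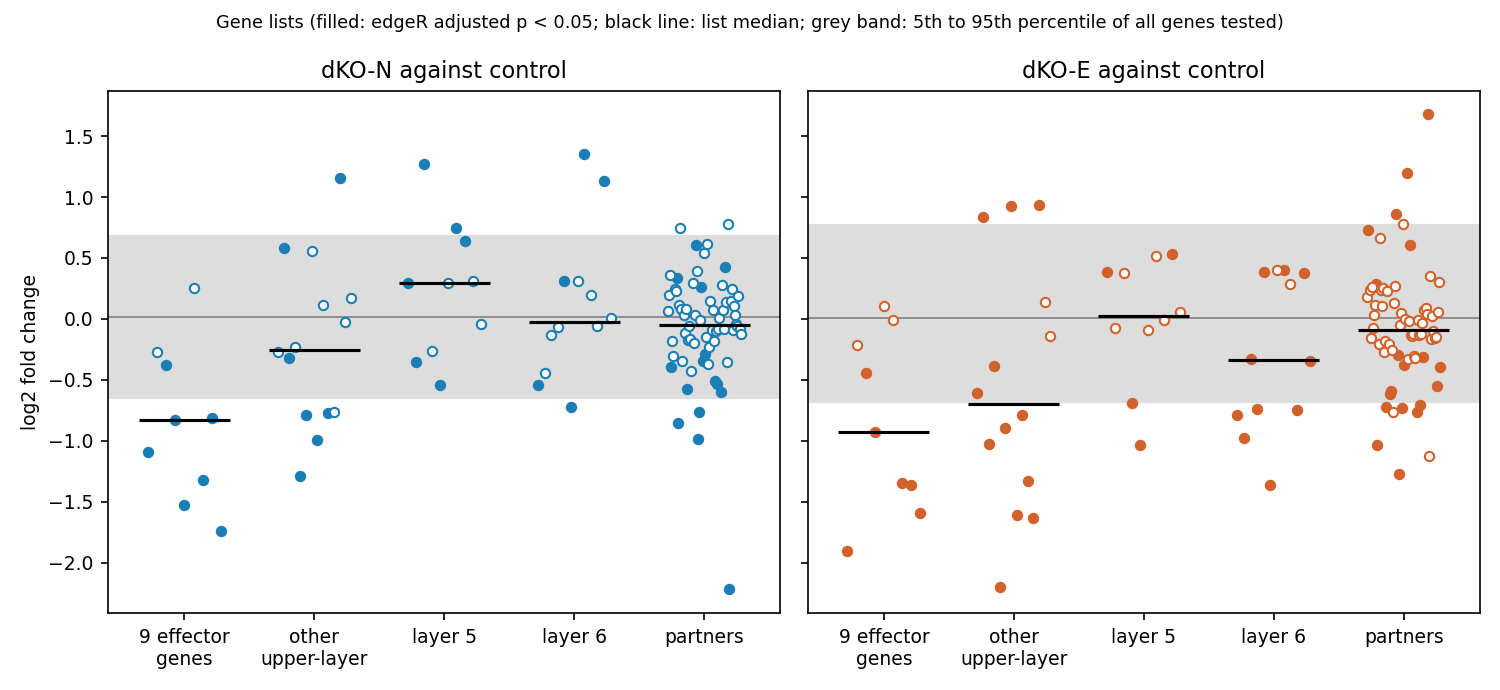
Log2 fold change of the tested genes of 5 lists (the 9 effector genes, other upper-layer genes, layer 5, layer 6 and the partners) in dKO-N and dKO-E against control; filled points passed the test (edgeR adjusted p under 0.05), black lines are list medians and the grey band holds the 5th to 95th percentile of all genes tested. The median of the effector genes is at -0.83 and -0.93, that of the partners at -0.05 and -0.09.

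The genes whose levels ran most like those of each effector gene were taken by Pearson's r of log2 CPM over the 12 libraries, among 5202 genes with enough counts. Dok5 and Ptn headed each other's list, with r = 0.99, and r = 0.76 for their deviations from the group means. Eml1 came next for Dok5 (0.99) and Hs6st2, a heparan sulfate sulfotransferase, for Ptn (0.98). Rasgrf2 ran most like Glis3 and Caln1 (0.98 each), but with r = 0.46 and 0.56 for the deviations from the group means. For the other genes named here that r ran from 0.72 to 0.95. Nectin3 ran with Sntg1 (0.98) and Ptprj (0.96), Limch1 with Dst (0.97) and Ank (0.96), and Lmo4 with Sdk1 (0.95). The best r was lower for the other 3 genes: Mdga1 ran with Mn1 (0.87) and Atp5c1 (0.86), Kitl with Camk1g (0.91) and Mbtps2 (0.89), and Lpl with Sacm1l (0.93) and Lmtk2 (0.85). Among the effector genes themselves, Rasgrf2 correlated with Lmo4 at 0.90 and with Mdga1 at -0.24, and the lowest r was that of Mdga1 and Lpl at -0.40. These are descriptions over libraries that share 3 groups and their depth and are given with no test.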

How the data were processed

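RNA of mouse cortex for 12 libraries was depleted of ribosomal RNA and made into libraries by ClickSeq, in which click chemistry attaches the adapters, per the labels' protocols. Per the submitters' processing notes, the tools were STAR, UMI-tools and HTSeq on mm10, with no version, counting option or strand setting given in the sources used here. The authors deposited raw counts per gene, 1 file a library, with no normalization. Each file lists 51912 genes, and 5 further lines that name no gene stayed out, which left 85.2% to 88.9% of each library in genes. Symbols and positions came from GENCODE M21 (99.6% of identifiers matched).

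Genes passing filterByExpr with a minimum count of 10 (11076, 99.05% of counts) were fitted in edgeR 4.0.16 under R 4.3.3 with TMM scaling, a quasi-likelihood model of the 3 groups (9 residual degrees of freedom) and Benjamini-Hochberg adjustment over all genes; SE is the absolute log2 fold change over the root of F, and SDs are of TMM-scaled CPM. The fit was tested on simulated data. DESeq2 1.42.0 and other settings were alternatives, 22 in all. Counting limits (3 counts) cover counting error only. The genes named besides the 9 were, from each list, up to 2 past the test with the largest change, and for likeness the 2 with the highest r; Lrp8, Ldb2, Ssbp2 and Rgs9 were named after their values were seen, and some genes that the rule names are not reported here. The 9 genes and all lists were chosen with earlier results of these data known. Replicate numbers in the titles did not pair the libraries.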

Additional observations from a re-analysis of the deposited data

Results flagged for a closer look

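Kitl in dKO-E 2, at 47.4 CPM, lay far below the other 3 dKO-E libraries (56.3 to 57.5 CPM). It was the 1 such library among the 27 sets of 4 libraries examined over the 9 genes, and chance gives about 1 in 20. The difference from control was not the same in the Neurod6-Cre and Emx1-Cre knockouts, by edgeR's test of the difference itself, for 3 of the 9 genes. Dok5 was lower in dKO-E by a log2 fold change of -0.81 and Ptn by -0.55, and Lpl was higher in dKO-E by 1.64. The Lpl difference rests on low counts, and the 4 dKO-N libraries held 2, 6, 3 and 15 counts of it.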

How the results depend on the processing

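Over 22 other settings (20 or 21 for Lpl), 14 of the 16 called values of single genes kept their call and direction, and of 590 values for the 9 genes 561 kept both. The exceptions among called values were those of Lpl: the dKO-N call was lost without the libraries labelled control 1 and 3 (-1.28), and the difference between the knockouts without dKO-N 4, in libraries without Y-linked counts (1.56, which also leaves out control 2) and without dKO-E 3 and 4, a setting chosen after seeing the data. DESeq2 gave Lpl no adjusted p between the knockouts (1.63). Lpl failed the filter on low counts and has no value when libraries were thinned, which left 6 of the 9 genes changed in dKO-N, nor between the knockouts with only the compared groups in the fit, which left 2. Mdga1 passed the test between the knockouts once libraries were thinned to the smallest total (-0.44). With 1 library left out at a time, 7 of the 9 genes changed in dKO-N, 6 in dKO-E, and 2 to 3 between the knockouts.

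Signs turned only for differences that passed no test. For Mdga1 in dKO-E the value was 0.12 with library totals and 0.00014 with only the compared groups in the fit, and -0.10 to 0.061 with 1 library left out. For Lpl in dKO-E it was -0.17 to 0.35 with 1 library left out. Between the knockouts Nectin3 was at 0.0158 with DESeq2, 0.0522 with library totals, 0.00070 with no filter, 0.0028 with only the compared groups, 0.0270 with the replicate block, 0.0069 in libraries without Y-linked counts, 0.22 when thinned and -0.13 to 0.26 with 1 library left out; Limch1 was at 0.0029 with library totals; and Kitl was at -0.0113 without Y-linked counts, -0.0103 without dKO-E 3 and 4, -0.0371 when thinned and as low as -0.0277 with 1 library left out (dKO-N 4).

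Over all genes, counts of changed genes moved more. Against 1255 changed in dKO-N, there were 756 without the libraries labelled control 1 and 3, 721 when thinned, and 972 to 1298 with 1 library left out. Against 2238 in dKO-E, there were 1215, 1214 and 1699 to 2753 in the same order, 975 in libraries without Y-linked counts and 1225 without dKO-E 3 and 4. Against 758 between the knockouts, there were 488 with only the compared groups, 150 without Y-linked counts, 199 without dKO-E 3 and 4, 326 when thinned, and 300 (without dKO-N 4) to 1036 with 1 library left out. With the replicate block the counts were 1065, 1974 and 500, and no called value of the 9 genes lost its call; no pair of same-numbered libraries deviated together (r -0.124 to 0.0131 over 12 pairs). With DESeq2 they were 989, 1654 and 507. Library totals moved the median of all genes to 0.14 in dKO-E and the share of changed genes that were higher from 50.0% to 73.9% there, from 44.5% to 57.8% in dKO-N and from 45.5% to 65.4% between the knockouts. The causes were not tested. Depth limits Lpl most, since 3 counts are 4.15 CPM in the smallest library.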
